A study of Homo sapiens with 14 samples.

Results

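Binding of GATA3 was described at 10 genes reported as its targets in breast cancer cells: ID1, ID3, LY6E, THSD4, LOX, DLC1, TIMP3, CASP14, CDKN2C and BRCA1. The measurement was chromatin immunoprecipitation followed by sequencing (ChIP-seq), deposited as 1 list of called peaks for each of 12 libraries. Peaks of all lists were merged wherever they shared at least 1 bp, which gave 78999 regions, and a library was said to call a region when it had a peak in it. A region belonged to a gene when it overlapped the gene's span in hg38 or the 50 kb on either side. By this rule 131 of the 78999 regions lay at the 10 genes, which are 10 of 20033 protein-coding genes.

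The cells were MDA-MB-231, an established line of triple-negative breast cancer. Cells carried GATA3 with the point mutation A442M and a C-terminal FLAG tag (A442M-FLAG), G444E with the tag (G444E-FLAG), unmutated GATA3 with the tag (WT-FLAG), or untagged A442M, G444E or unmutated GATA3 (WT), with 2 libraries in each of the 6 groups. All groups were untreated, were harvested on day 3 and were precipitated with an antibody against GATA3 and not against the tag. How well it recovers tagged and untagged protein was not measured here. The series' design text describes the tag as stabilising GATA3 whatever the mutation. The promoter that drives GATA3, the clonality of the cells and the level of their own GATA3 are not stated by the labels. Nor do the labels say whether replicates were separate cultures; a p-value here reflects only how far these particular samples vary, and that may be technical. Peak lists hold no expression, so the cell line was not checked against marker genes, and empty-vector cells (2 samples) were not analysed here.

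GATA3 is a zinc-finger transcription factor that binds short DNA elements built around the letters GATA and is needed for the luminal cells of the mammary gland. Its loss goes with poorly differentiated breast tumours, and its return to such cells has been linked to differentiation and less spread. The 10 genes stand for several of the programmes involved. ID1 and ID3 encode helix-loop-helix proteins that hold back differentiation factors, LY6E a surface protein anchored in the membrane by a lipid, and THSD4 a matrix protein that binds fibrillin. LOX crosslinks collagen and elastin, TIMP3 inhibits matrix metalloproteinases, and DLC1 is known as a tumour suppressor. CASP14 is a caspase of cornifying skin, CDKN2C inhibits the cyclin D-dependent kinases, and BRCA1 acts in DNA repair.

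Of the 10 genes, 8 were matched in a RefSeq table of promoters (GRCh38.p14, the chromosome coordinates of hg38), with 15 promoters of 300 bases each, from 250 before to 50 after a start site. Not matched were LY6E and DLC1. A GATA element was taken as the letters GATA with A or T directly before them and A or G directly after, on either strand, and 3 of the 15 promoters held at least 1, against 25.0% of all 35116 promoters. The 3 sequences below show a promoter with the element under a region called in every library, a promoter of the same gene without the element under a called region, and a promoter with the element and no called region. They are written 5′ to 3′ on the strand of the gene, with the elements in capitals.
THSD4 promoter 1, chr15:71096644-71096943, plus strand: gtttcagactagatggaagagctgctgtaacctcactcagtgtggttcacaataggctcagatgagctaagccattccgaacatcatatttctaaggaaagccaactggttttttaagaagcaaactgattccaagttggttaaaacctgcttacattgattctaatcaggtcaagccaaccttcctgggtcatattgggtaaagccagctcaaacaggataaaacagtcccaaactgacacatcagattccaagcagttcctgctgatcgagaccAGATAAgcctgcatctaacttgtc
THSD4 promoter 2, chr15:71115221-71115520, plus strand: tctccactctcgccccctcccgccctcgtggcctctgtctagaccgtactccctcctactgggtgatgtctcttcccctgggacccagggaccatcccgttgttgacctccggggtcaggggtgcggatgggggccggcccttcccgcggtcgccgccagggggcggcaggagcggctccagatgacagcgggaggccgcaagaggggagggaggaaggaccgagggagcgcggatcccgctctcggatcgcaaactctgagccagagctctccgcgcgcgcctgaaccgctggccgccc
BRCA1 promoter 2, chr17:43125315-43125614, minus strand: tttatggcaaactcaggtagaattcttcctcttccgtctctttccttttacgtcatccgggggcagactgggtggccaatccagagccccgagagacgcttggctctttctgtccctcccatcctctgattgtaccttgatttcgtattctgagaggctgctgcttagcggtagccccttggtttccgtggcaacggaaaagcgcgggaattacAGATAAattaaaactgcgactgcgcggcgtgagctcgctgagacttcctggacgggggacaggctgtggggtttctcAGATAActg

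The element AGATAA begins at position 27 in THSD4 promoter 1, counted from 1 at the start site. In BRCA1 promoter 2 it stands at position -36, before the start site, and again at 42. The other BRCA1 promoter held the reverse-strand form CTATCT at -213 and lay under no region in any library. Under a called region lay 5 of the 15 promoters, namely promoters 1 and 2 of THSD4, a pair of LOX promoters that overlap each other and the promoter of ID3. Among all 35116 promoters, the element was in 38.4% of the 479 under a region called in all 12 libraries, in 23% of the 3885 under a region called in 1 to 11 libraries, and in 25.0% of the 30752 under none. These are matches of letters and not measured binding sites.

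The score that the authors gave each peak has no named scale, so it was used as a percentile within its own list, where 100 is the highest score. Lists held between 25248 and 51694 peaks, and a longer list reaches further down into weak peaks, which lifts the percentile of a strong one. Percentiles from different libraries therefore describe the rank of a peak and show no change in binding. Read depth is unknown, so a region without a call is one where no peak was listed, not one shown to be unbound. Untagged WT and untagged A442M also stood apart from the other groups, with a mean of 97 and 66 peaks on unplaced contigs, against 15 to 21 in the other 4 groups, and the part of this in the results below was not tested.

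Of the 131 regions, 74 lay inside the span of their gene, 15 lay outside it but inside another protein-coding gene, and for 101 the gene itself was the nearest protein-coding gene. A LOX region inside both LOX and SRFBP1 was counted for SRFBP1 and is not among the 101. Within 1 kb of a span end lay 8. All 12 libraries called 21 regions (16.0%), against 13.8% of all 78999 regions, and 1 library alone called 26 (19.8%), against 23.5%. A further 48 were called in 2 to 5 libraries and 36 in 6 to 11. The median percentile was 82.4 for the members' regions called in all 12 libraries, against 79.1 for all such regions, and 15.6 for those called in 1, against 13.5. These shares and ranks were close to those over all regions. Without the 2 untagged WT libraries, 30 regions were called in all that remained, and 33 without those and the 2 of untagged A442M. When a peak had to cover at least 50% of the merged region to count, 7 were called in all 12.

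**Figure D1:**
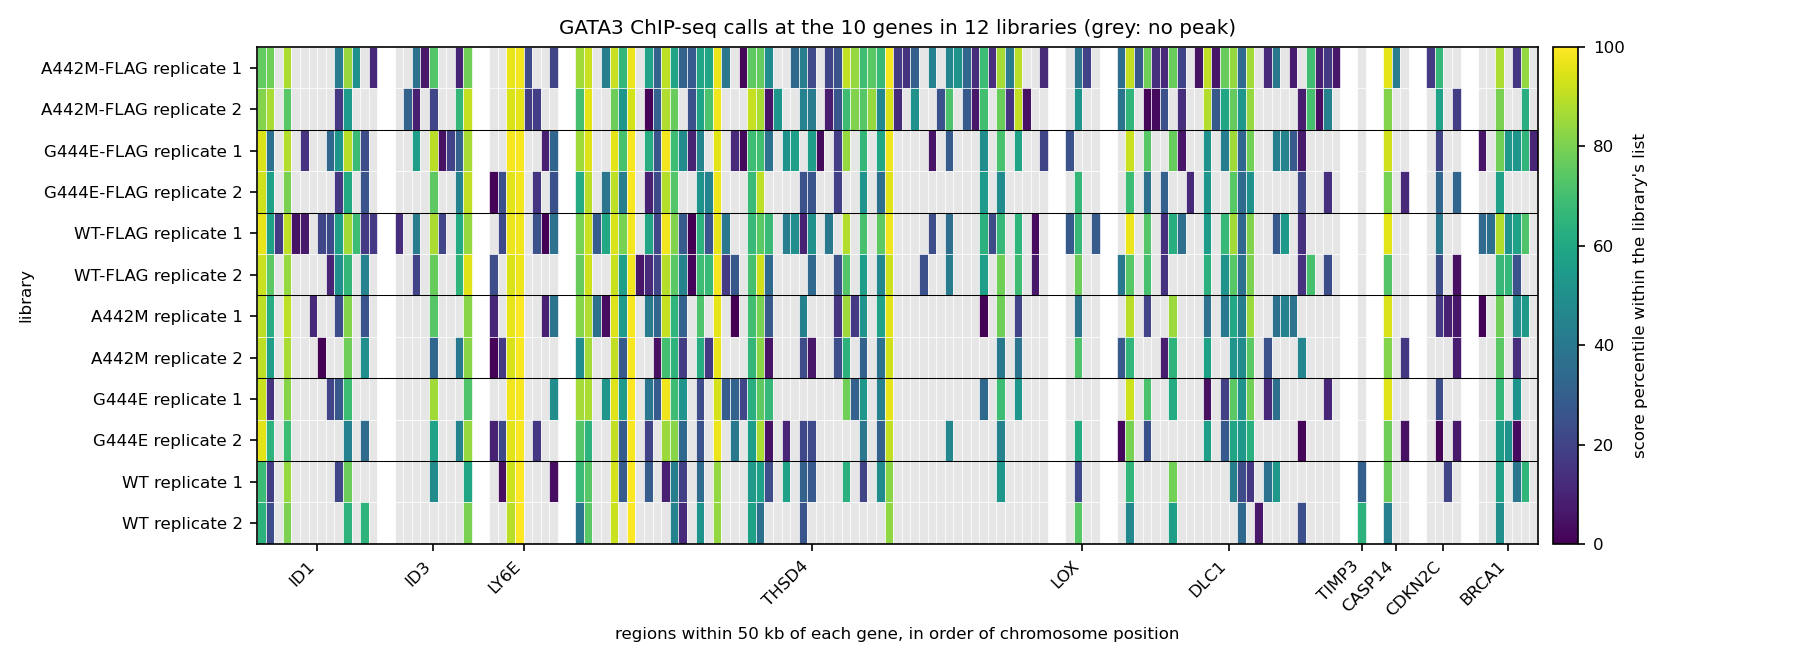
Every region at the 10 genes (columns, grouped by gene) in each of the 12 libraries (rows), coloured by the percentile of its score within the list. Grey means no peak. THSD4 holds 55 of the 131 columns and DLC1 26, while TIMP3 has 1, called in both untagged WT libraries alone.

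The genes differed widely in how many regions they held. THSD4 had 55, DLC1 26, ID1 14, ID3 9, LY6E 8, BRCA1 7, LOX and CDKN2C 4 each, CASP14 3 and TIMP3 1. Long genes have wide windows, so each was set against protein-coding genes whose window was within 1.25 times its own. ID1 exceeded 98.1% of such genes and THSD4 97.2%, with ID3 at 89.4%, LY6E at 85.0% and DLC1 at 77.5%. CDKN2C, LOX, BRCA1 and CASP14 stood between 39.0% and 49.7%, each with the median number of regions for its window, and TIMP3 exceeded 6.77%. A region in all 12 libraries was present at 7 of the 10 genes, the exceptions being LOX, TIMP3 and CDKN2C, against 40.6% of all protein-coding genes. This last comparison was not matched on the width of the window, which was 786 kb at THSD4 and 621 kb at DLC1, against a median of 124 kb over all protein-coding genes.

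Among the inhibitors of differentiation, ID1 (chr20:31605289-31606510) had 14 regions and none inside its short span. Its region with the highest median percentile, chr20:31559225-31560361, lay 45496 bp below the span, inside HM13. This region ranked at percentiles 75.9 and 81.6 in A442M-FLAG, 94.2 and 92.5 in G444E-FLAG, 96.1 and 91.9 in WT-FLAG, 89.9 and 90.2 in A442M, 91.7 and 95.6 in G444E, and 68.1 and 64.1 in WT. The untagged WT libraries were the lowest of the 12, with A442M-FLAG next. Nearer to the gene, 4296 bp past its end, chr20:31610524-31611088 was also called in all 12, at percentiles 84.6 and 54.6 in A442M-FLAG, 89.4 and 60.9 in G444E-FLAG, 86.0 and 66.4 in WT-FLAG, 81.6 and 77.9 in A442M, 68.4 and 43.5 in G444E, and 77.4 and 64.5 in WT. Replicate 1 ranked above replicate 2 in every group there. A442M lay above G444E and WT, and each of the 3 FLAG groups overlapped all the others. Within 1 kb of the ends of ID1, chr20:31604148-31604574 was called in WT-FLAG replicate 1 and A442M replicate 2, and chr20:31606640-31607624 in both WT-FLAG libraries, G444E-FLAG replicate 1 and G444E replicate 1.

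ID3 (chr1:23557926-23559501) had 9 regions. The one called in all 12 libraries, chr1:23585475-23585941, lay 26207 bp above the span, at percentiles 78.3 and 91.1 in A442M-FLAG, 86.8 and 90.6 in G444E-FLAG, 84.3 and 95.1 in WT-FLAG, 82.1 and 82.2 in A442M, 72.6 and 84.0 in G444E, and 59.3 and 79.9 in WT. Closer by, chr1:23555851-23557631 was called in 11 libraries and missing from WT replicate 2, with percentiles between 21.4 and 89.5. Regions on the gene were few: chr1:23558120-23558636 was called in G444E-FLAG replicate 1 and WT-FLAG replicate 1, and chr1:23559348-23559602, over the promoter, in G444E-FLAG replicate 1 alone. At 12978 bp below the span, chr1:23544755-23545140 was called in 5 of 6 FLAG libraries and in 0 of 6 untagged ones. Its percentiles were 37.8 and 8.90 in A442M-FLAG, 55.1 in G444E-FLAG replicate 1, and 41.2 and 20 in WT-FLAG.

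LY6E (chr8:143018529-143022409) had 8 regions, and its pair called in all 12 libraries were among the highest ranked of the genes described. The leading one, chr8:142996756-142997874, lay 21214 bp below the span, at percentiles 98.2 and 95.8 in A442M-FLAG, 99.0 and 98.1 in G444E-FLAG, 97.9 and 97.3 in WT-FLAG, 99.4 and 99.1 in A442M, 98.8 and 98.9 in G444E, and 99.7 and 99.7 in WT. Its neighbour chr8:142993212-142993807 ranked between 89.5, in WT replicate 2, and 98.5, in G444E-FLAG replicate 1. The leading region thus ranked highest in WT, and its neighbour lowest there. At the low end of the gene, chr8:143018500-143019105 was called in 3 replicate 1 libraries, those of G444E-FLAG, WT-FLAG and A442M, at percentiles of 9.24 or less.

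Of the matrix genes, THSD4 (chr15:71096894-71783383) held 55 regions, 47 of them inside its span, and 10 were called in all 12 libraries. The highest ranked, chr15:71096566-71097133, covered the first start site and the AGATAA of promoter 1. Its percentiles were 97.1 and 93.2 in A442M-FLAG, 99.2 and 98.9 in G444E-FLAG, 98.8 and 98.0 in WT-FLAG, 99.1 and 99.1 in A442M, 99.4 and 98.9 in G444E, and 99.6 and 99.4 in WT. The A442M-FLAG libraries, whose lists are the longest on average, ranked it lowest, and no library ranked it below 93.2. Over promoter 2, chr15:71114322-71116147 was called in 10 libraries and missing from A442M replicate 2 and WT replicate 2, at percentiles from 1.07 to 62.2.

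Inside THSD4, chr15:71251238-71253012 ranked at 97.1 and 97.8 in A442M-FLAG, 95.5 and 97.3 in G444E-FLAG, 96.2 and 98.6 in WT-FLAG, 96.1 and 96.7 in A442M, 93.5 and 97.1 in G444E, and 83.9 and 83.8 in WT. A further one, chr15:71609693-71610421, ranked at 98.6 and 93.9 in A442M-FLAG, 98.0 and 95.0 in G444E-FLAG, 97.7 and 92.2 in WT-FLAG, 95.6 and 92.9 in A442M, 96.1 and 91.0 in G444E, and 82.6 and 83.4 in WT. Both regions were chosen after their values were seen, because the untagged WT libraries did not overlap the others in rank. At the promoter 1 region the order was the opposite, with WT highest. The untagged WT lists are among the shortest, and the part of list length in these ranks was not tested.

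**Figure D2:**
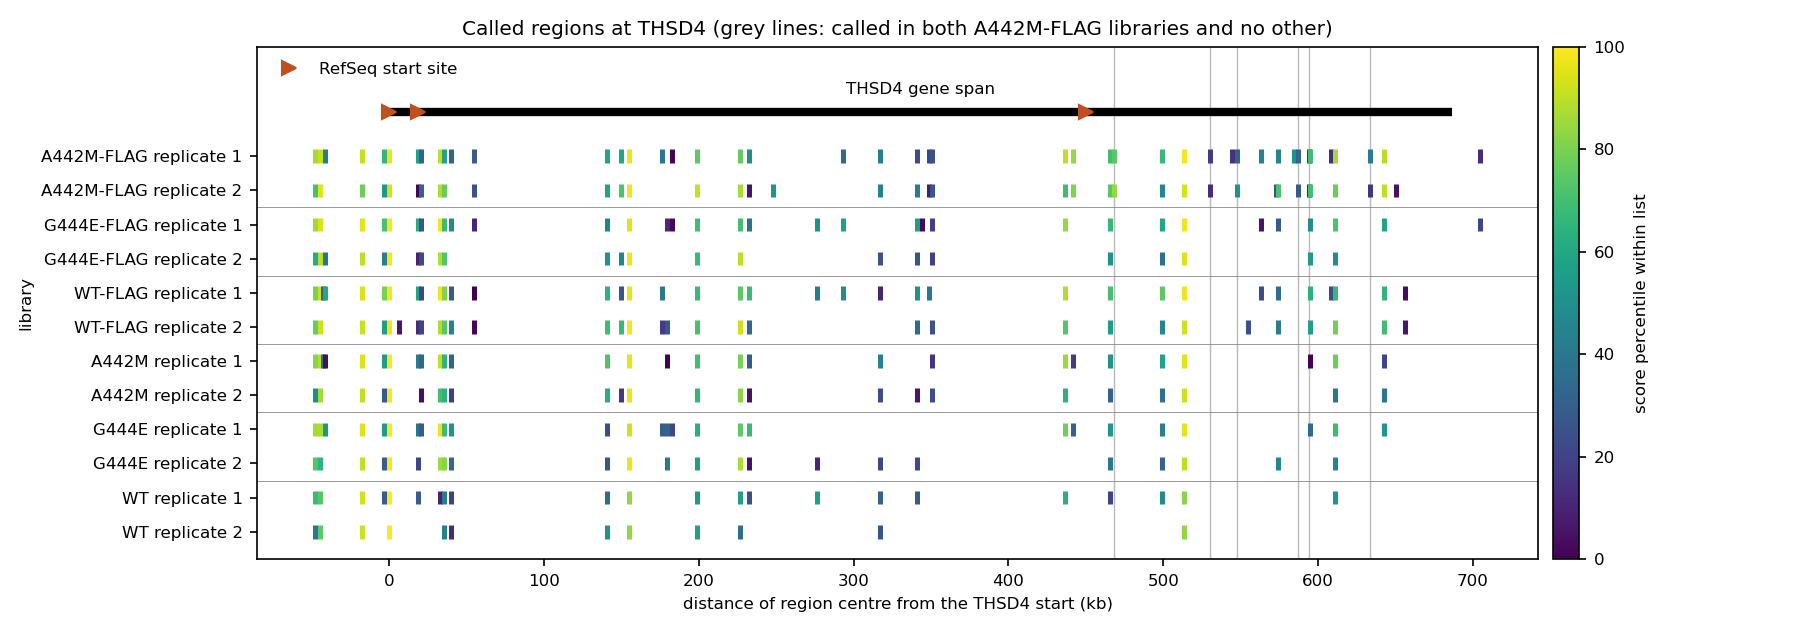
Called regions along THSD4, with the distance of the region's centre from the first start site in kb on the horizontal axis, 1 row for each library, and colour for the percentile within the list. Grey lines mark the 6 regions called in both A442M-FLAG libraries and no other, all of them in the part of the gene farthest from the first start site, 468 to 634 kb from it. A later RefSeq start site of THSD4, at chr15:71547236, lies between the first start site and these 6 regions.

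LOX (chr5:122063195-122078259) had 4 regions and none in all 12 libraries. Its leading region, chr5:122089446-122090005, lay 11466 bp beyond the high end of the span, where the gene on its minus strand starts, and was called in 10 libraries. It ranked at 38.9 and 51.6 in A442M-FLAG, 66.4 in G444E-FLAG replicate 2, 67.5 and 77.6 in WT-FLAG, 39.0 and 72.0 in A442M, 61.6 in G444E replicate 2, and 21.7 and 73.8 in WT. Replicate 1 was thus missing in both G444E groups and ranked below replicate 2 in the others. The region over the 2 LOX promoters inside the span, chr5:122076800-122077302, whose centre also lies inside SRFBP1, was called in G444E-FLAG replicate 1 and WT-FLAG replicate 1, at 25.3 and 27.8. The LOX promoter at the gene's own end lay under no region.

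TIMP3 (chr22:32801705-32863041) had the fewest regions of the 10. The single one, chr22:32761366-32761737, lay 40154 bp below the span, inside SYN3, the gene in whose intron TIMP3 is nested. It was called in WT replicate 1 at percentile 30.4 and in WT replicate 2 at 64.3, and in none of the other 10 libraries. Of all 78999 regions, 391 (0.495%) had this pattern, and of the 131 regions here the TIMP3 one alone had it.

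DLC1 (chr8:13083361-13604620) held 26 regions, 22 of them inside its span. The leading one by median percentile, chr8:13276350-13277192, was called in 11 libraries, at 86.0 and 84.1 in A442M-FLAG, 78.7 and 50.7 in G444E-FLAG, 81.1 and 80.3 in WT-FLAG, 85.0 and 74.6 in A442M, 78.7 and 63.5 in G444E, and 15.8 in WT replicate 1. It was missing from WT replicate 2. All 12 libraries called chr8:13077298-13078317, 5554 bp below the span, at 90.8 and 65.5 in A442M-FLAG, 91.9 and 68.6 in G444E-FLAG, 97.0 and 74.1 in WT-FLAG, 89.5 and 65.9 in A442M, 92.4 and 79.3 in G444E, and 65.6 and 46.5 in WT. Replicate 1 ranked above replicate 2 in all 6 groups. The calls of chr8:13364993-13365485 followed the replicate number, present in all 6 replicate 1 libraries at percentiles of 27.5 to 53.0 and in no replicate 2 library. Over the whole series, 396 of 78999 regions had this pattern, so it is not particular to DLC1.

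**Figure D3:**
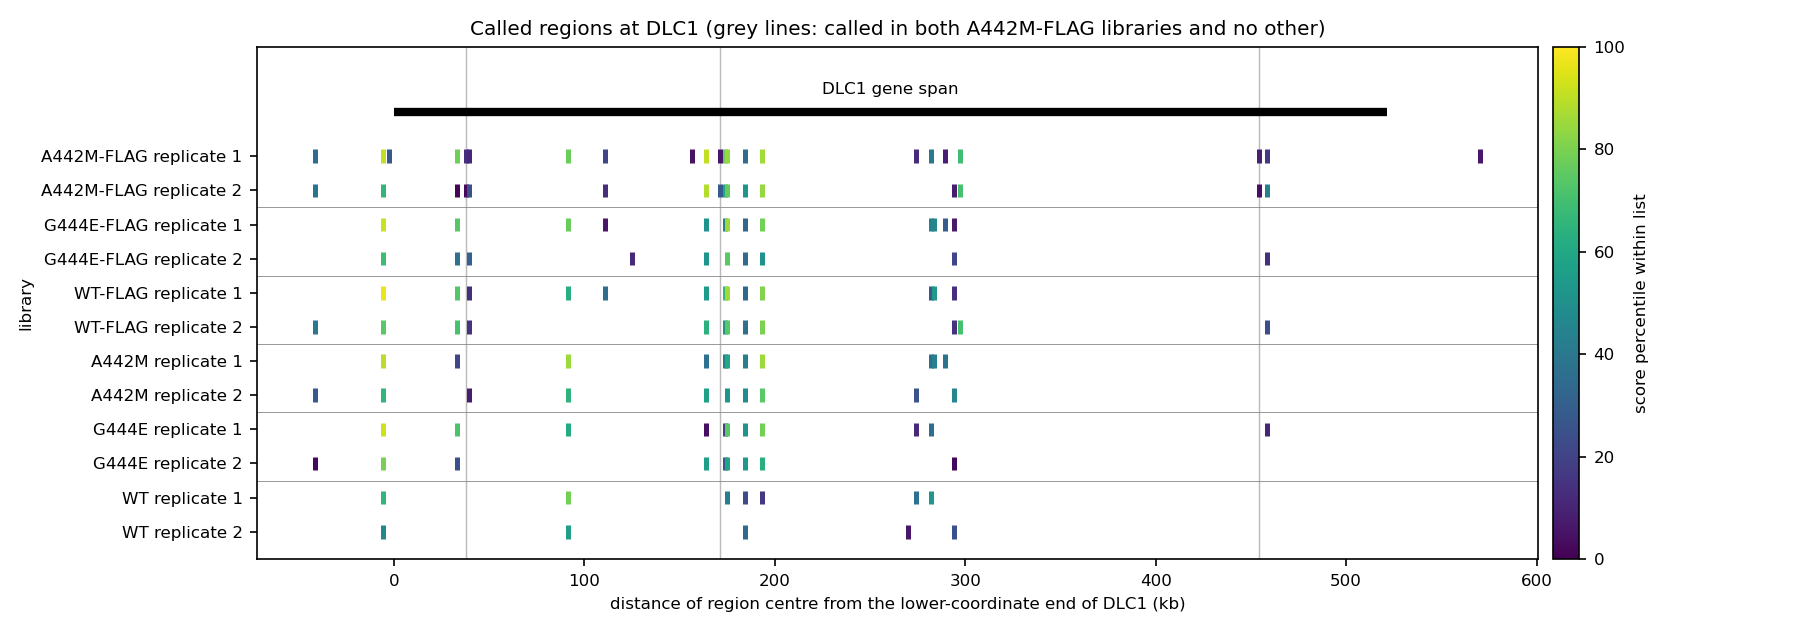
Called regions along DLC1, with the distance of the region's centre from the lower-coordinate end of the gene in kb on the horizontal axis, 1 row for each library, and colour for the percentile within the list. Grey lines mark the 3 regions called in both A442M-FLAG libraries and no other, which rank at 27.8 or below.

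CASP14 (chr19:15049480-15058293) had 3 regions, all past its high end. The leading one, chr19:15072883-15074186, was called in all 12 libraries at percentiles 95.8 and 81.3 in A442M-FLAG, 92.8 and 79.5 in G444E-FLAG, 95.7 and 72.7 in WT-FLAG, 94.2 and 81.6 in A442M, 95.0 and 77.9 in G444E, and 77.4 and 43.3 in WT. Its nearest protein-coding gene was OR1I1 and not CASP14. Replicate 1 ranked higher in every group, and WT replicate 1 lay among the replicate 2 values of the other groups.

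CDKN2C (chr1:50960745-50974634) had 4 regions, none inside its span. The leading one, chr1:50931145-50931719 inside FAF1, was called in 9 libraries, at 66.9 and 57.6 in A442M-FLAG, 20.3 and 33.2 in G444E-FLAG, 40.1 and 23.2 in WT-FLAG, 15.8 in A442M replicate 1, 23.3 and 0.925 in G444E, and in neither WT library. A442M-FLAG ranked it highest. No region was called within 1 kb of the ends of CDKN2C.

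BRCA1 (chr17:43044295-43170327) had 7 regions and 1 inside its span. The leading one, chr17:43021066-43021609 inside VAT1, was called in all 12 libraries, at 87.5 and 79.8 in A442M-FLAG, 78.5 and 57.7 in G444E-FLAG, 88.5 and 66.8 in WT-FLAG, 78.1 and 74.4 in A442M, 66.7 and 55.4 in G444E, and 57.8 and 49.9 in WT. A442M-FLAG overlapped WT-FLAG in rank and lay above the other 4 groups, with WT replicate 2 the lowest library. The region inside the BRCA1 span, chr17:43136526-43136951, was called in 6 libraries and lay outside the promoter with the AGATAA pair. On the minus strand it lay before the start site of that promoter, chr17:43125364, and after the other BRCA1 start site, chr17:43170327.

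Across the 10 genes, A442M-FLAG libraries called 92 and 74 of the 131 regions, G444E-FLAG 74 and 54, WT-FLAG 85 and 65, A442M 62 and 53, G444E 53 and 53, and WT 47 and 29. Means were 83.0 ± 12.7 in A442M-FLAG, 64.0 ± 14.1 in G444E-FLAG, 75.0 ± 14.1 in WT-FLAG, 57.5 ± 6.36 in A442M, 53.0 ± 0 in G444E and 38.0 ± 12.7 in WT (SD, n = 2 each). Replicate 1, with the longer list of each group, called at least as many as replicate 2 in every group. Across groups a longer list did not always call more, since WT-FLAG replicate 2 with 36955 peaks called 65 and A442M replicate 1 with 39700 peaks called 62. The members' regions made up between 0.118% and 0.202% of a library's regions, both ends of that range in libraries with unmutated GATA3. With every list reduced to its 25248 highest scoring peaks, A442M-FLAG called 42 and 47, G444E-FLAG 48 and 48, WT-FLAG 49 and 47, A442M 42 and 36, G444E 49 and 47, and WT 44 and 29. At equal length WT replicate 2 called the fewest, and both A442M libraries called fewer than either library of G444E-FLAG, WT-FLAG and G444E.

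**Figure D4:**
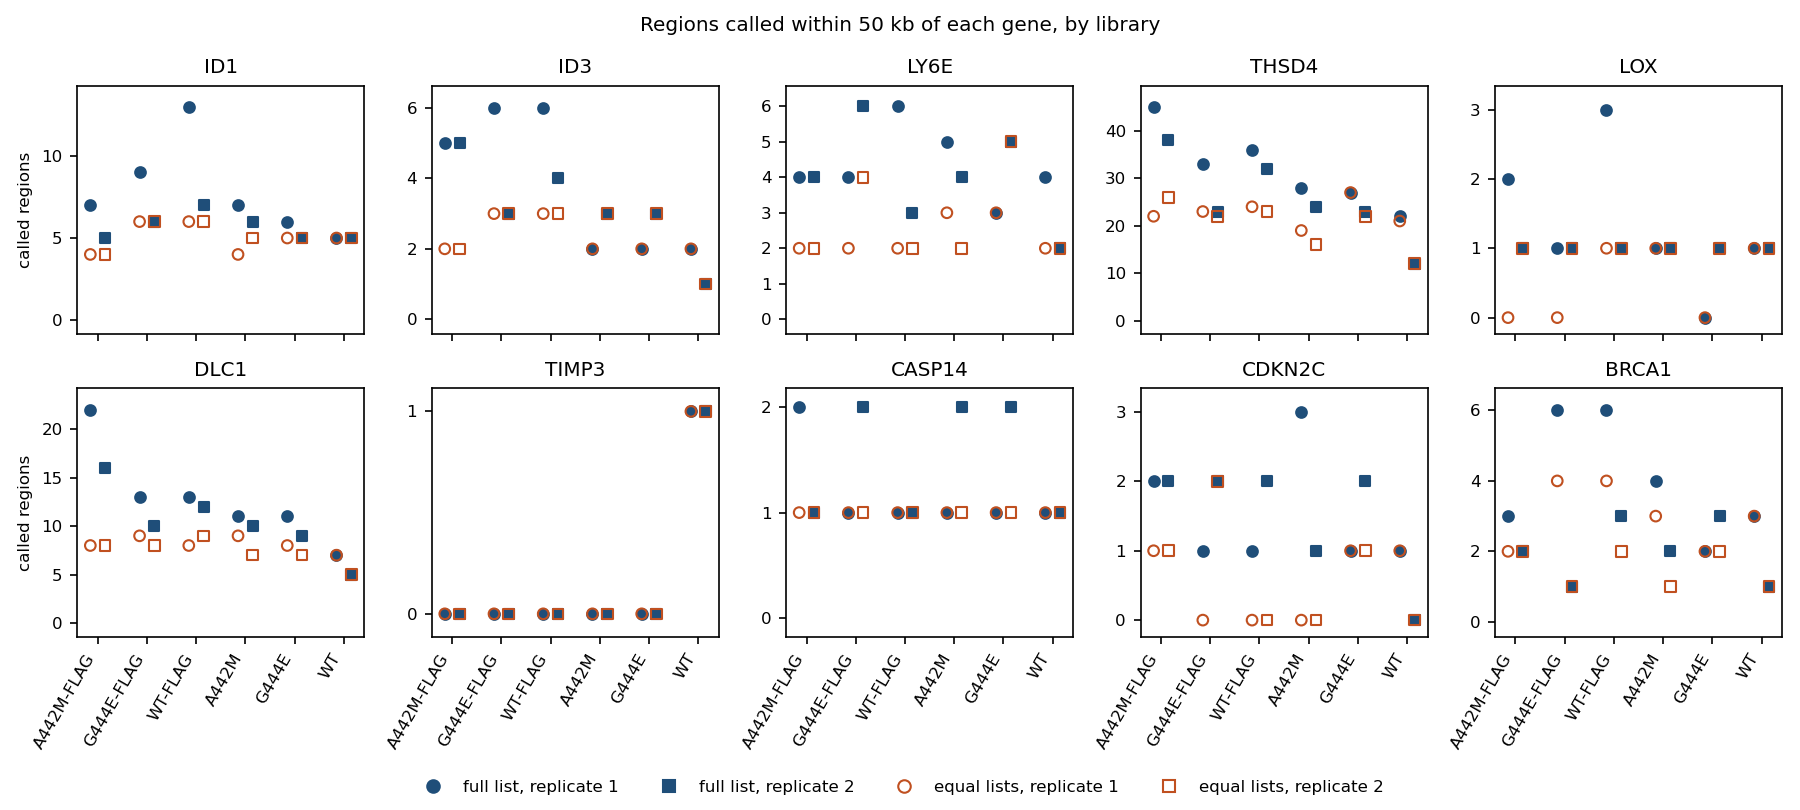
Number of regions called at each gene (vertical axes, scaled by gene) in the libraries of the 6 groups (horizontal axes), with circles for replicate 1, squares for replicate 2, filled marks for the full lists and open marks for lists of equal length. With full lists THSD4 has 45 calls in A442M-FLAG replicate 1, the most, and 12 in WT replicate 2, the fewest, while CASP14 has 1 or 2 in every library.

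WT replicate 2, whose list was the shortest with 25248 peaks, called the fewest members' regions of any library. There were 8 regions called in 11 libraries (6.11%, against 4.75% of all regions), and all 8 were missing from WT replicate 2, a pattern of 1.58% of all regions. Over the whole series, 3753 regions were called in 11 libraries, and 1252 of those were missing from WT replicate 2. The part of list length in this pattern was not tested. Of the members' 8, ID3 had 1, DLC1 2 and THSD4 5, among them chr15:71129143-71130314, which ranked between 70.2 and 98.1 in the 10 libraries outside WT and at 9.24 in WT replicate 1.

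For the question of how each mutation and the tag change binding, counts were made of regions that both libraries of a group called and neither library of the other did, among the regions that any of the 4 libraries called. A permutation of 2 against 2 libraries cannot give an exact p below 0.33, so these 7 pairs of groups have counts and no test. With untagged protein, 6 regions were called in both A442M and in neither WT (8% of 75, against 11% of all regions), and 1 in both WT and in neither A442M (1.33%, against 1.08%). THSD4 had 3 of the 6, and LY6E, DLC1 and CDKN2C 1 each. The LY6E one, chr8:142984215-142984649, ranked at 10.6 and 1.16 in A442M, and the CDKN2C one, chr1:51019347-51019852, at 5.64 and 8.11. WT-FLAG replicate 2 also called both, at 23.7 for LY6E and 4.15 for CDKN2C. So did G444E replicate 2, at 9.57 and 6.62, and G444E-FLAG replicate 2, at 1.08 and 32.2. The CDKN2C one was further called in A442M-FLAG replicate 2, at 17.7. The DLC1 one, chr8:13246478-13247670, ranked at 37.0 and 56.9 in A442M and was called in every group other than WT. Lists of equal length gave 2 of 56 regions in each direction, at THSD4 and DLC1 in A442M and at THSD4 and TIMP3 in WT. The same lists gave 6.53% and 3.81% over all regions, so the gap between the directions was smaller there too. Without WT replicate 1 the A442M count was 17, without A442M replicate 1 12 and without A442M replicate 2 19, since a lone library is more easily one-sided, and the WT count was 2 without either WT replicate.

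In G444E against WT, 5 regions were called in both G444E and in neither WT (6.94% of 72, against 8.72%), with 3 at DLC1 and 1 each at THSD4 and CDKN2C. The opposite pattern held for 1 region (1.39%, against 6.27%), the TIMP3 region. At DLC1, chr8:13116056-13116735 ranked at 71.6 and 24.9 in G444E. It was also called in all 6 FLAG libraries and in A442M replicate 1. With lists of equal length the counts were 4 and 1 of 69 regions, against 8.01% and 7.33% of all regions. The G444E count was 16 without WT replicate 1, 13 without G444E replicate 1 and 14 without G444E replicate 2, and 9 with the cover of at least 50%. The WT count was 2 or 3 without any 1 of the 4 libraries.

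With the tag, 11 regions were called in both A442M-FLAG and in neither WT-FLAG (9.02% of 122, against 7.15%), and 4 the other way (3.28%, against 1.89%). THSD4 held 7 of the 11, DLC1 3 and LY6E 1. The 4 in both WT-FLAG and in neither A442M-FLAG were 2 at ID1, 1 at THSD4 and 1 at BRCA1. The BRCA1 one, chr17:43024458-43024783, ranked at 50.4 and 66.6 in WT-FLAG, at 53.0 in G444E-FLAG replicate 1 and at 51.0 in G444E replicate 2. The ID1 one at chr20:31620228-31620814 was called in both libraries of G444E-FLAG, WT-FLAG and A442M. WT replicate 2 also called it, at 64.5, and G444E replicate 2, at 34.8. Both shares were a little above those of all regions in both directions. Lists of equal length gave 3 and 3 of 63 regions, against 5.59% and 4.11% of all regions; the 3 in A442M-FLAG lay at THSD4 and CDKN2C, and CDKN2C had none of the 11. A score of at least 10 gave 6 and 2. Without A442M-FLAG replicate 2 the 11 became 25. The 4 became 8 without WT-FLAG replicate 1, 19 without WT-FLAG replicate 2 and 7 without A442M-FLAG replicate 1.

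Called in both A442M-FLAG libraries and in no other of the 12 were 10 of the 131 regions (7.63%, against 4% of all regions). THSD4 had 6, DLC1 3 and LY6E 1. The highest ranked was chr15:71565049-71565553 inside THSD4, at 74.5 and 84.3. At THSD4 the next was chr15:71643906-71644808, at 30 and 50, and the remaining 4 ranked at 41.6 or below in both libraries. The LY6E region, chr8:143000122-143000451, ranked at 23 and 17.8. A442M-FLAG has the longest lists on average, and with lists of equal length chr15:71565049-71565553 alone was left (1 of 84 regions, against 2.61% of all regions); a score of at least 10 gave 4. Counted in 1 A442M-FLAG library and no other group, 14 regions had this pattern without replicate 1 and 20 without replicate 2. Beside it, chr15:71538343-71539253 ranked at 84.2 and 80.9 in A442M-FLAG and was otherwise called in A442M replicate 1, at 17.4, and G444E replicate 1, at 30.7.

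In G444E-FLAG against WT-FLAG, no region of 102 was called in both G444E-FLAG and in neither WT-FLAG (against 0.659% of all regions), and 2 were called the other way (1.96%, against 3.11%), both at THSD4. The 0 stayed at 0 with lists of equal length and became 1 to 6 when 1 library was left out, highest without G444E-FLAG replicate 2. The 2 became 1 of 67 with lists of equal length, where all regions gave 1.3% and 1.73%, and 5 to 13 when 1 library was left out, highest without G444E-FLAG replicate 1. All 4 libraries called 40 of the 102.

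**Figure D5:**
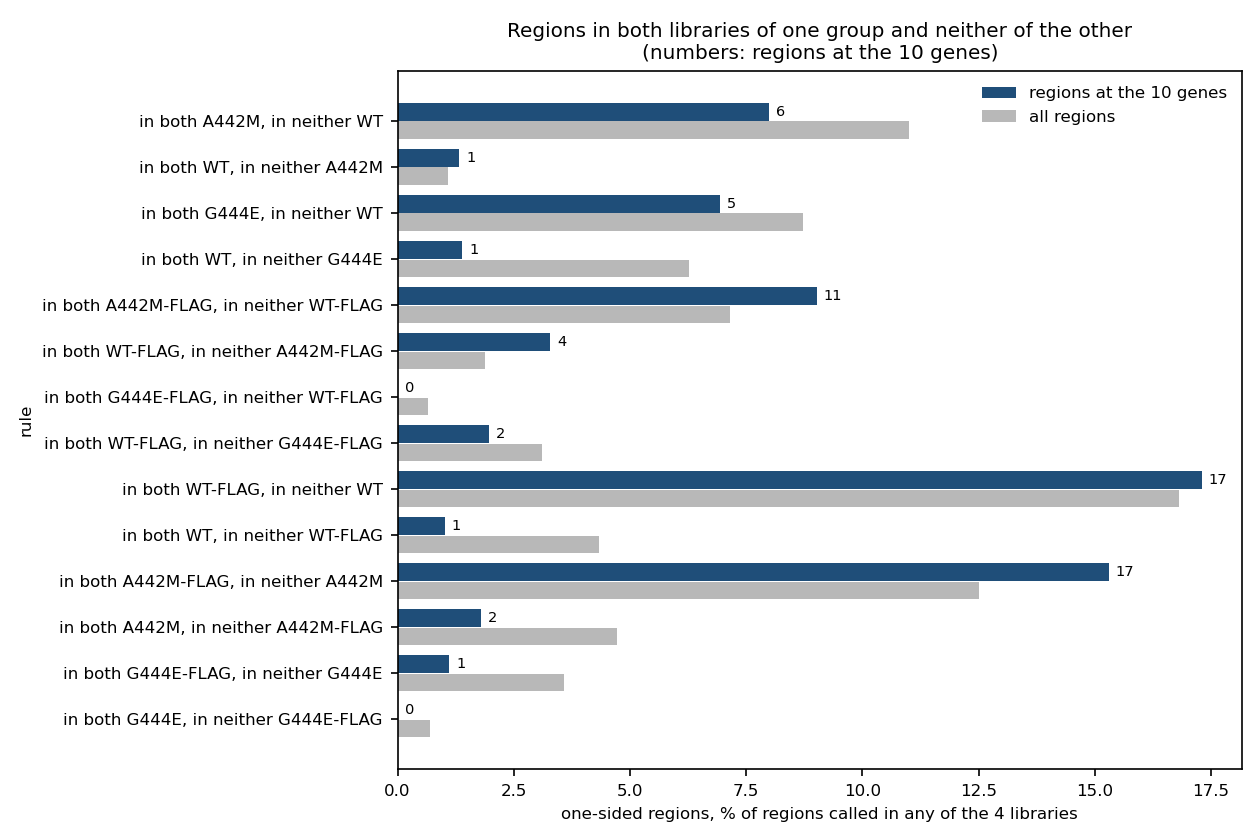
Share of regions (percent, horizontal axis) called in both libraries of a group and in neither of the other, for each of the 14 directions of the 7 pairs, at the 10 genes and over all regions. The members' share is highest for WT-FLAG against WT, 17.3%, where that of all regions is 16.8%.

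For the tag, 17 regions were called in both WT-FLAG and in neither WT (17.3% of 98, against 16.8% of all regions), and the TIMP3 region alone was called the other way (1.02%, against 4.34%). THSD4 had 8 of the 17, DLC1 4, ID3 2, and ID1, CDKN2C and BRCA1 1 each. The second ID3 region, chr1:23577310-23578013, ranked at 60.9 and 65.1 in WT-FLAG and was called in all 6 FLAG libraries. Of the untagged libraries, A442M replicate 2 called it at 40.6 and G444E replicate 2 at 44.9. At THSD4, chr15:71739175-71739848 ranked at 64.9 and 68.8 in WT-FLAG and at 89.6 and 90.7 in A442M-FLAG. This region was also called without the tag, at 20.2 and 39.0 in A442M and at 52.7 in G444E replicate 1. It was missing from G444E-FLAG replicate 2. The share at these genes was close to that of all regions. Lists of equal length gave 8 and 2 of 63 regions, against 11.5% and 9.33% of all regions, so over all regions the directions were much closer than with full lists. The 17 became 31 without WT replicate 1, 26 without WT-FLAG replicate 1 and 39 without WT-FLAG replicate 2, and the 1 became 2 or 3 without WT replicate 1, WT replicate 2 or WT-FLAG replicate 1.

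In A442M-FLAG against A442M, 17 regions were called in both A442M-FLAG and in neither A442M (15.3% of 111, against 12.5%), and 2 the other way (1.80%, against 4.71%). THSD4 had 9 of the 17, DLC1 6, and ID3 and LY6E 1 each. One at DLC1, chr8:13380389-13380829, ranked at 69.3 and 70.4 in A442M-FLAG and was otherwise called in WT-FLAG replicate 2, at 70.7. Lists of equal length gave 6 and 0 of 58 regions, against 10.4% and 9.24% of all regions; the 6 lay at THSD4, DLC1 and CDKN2C, and CDKN2C had none of the 17. A score of at least 10 gave 11 and 1. The 17 became 35 without A442M-FLAG replicate 2, and the 2 became 5 without A442M replicate 1 or A442M-FLAG replicate 1 and 9 without A442M replicate 2.

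In G444E-FLAG against G444E, 1 region was called in both G444E-FLAG and in neither G444E (1.11% of 90, against 3.57%), at THSD4, and 0 the other way (against 0.7%). Lists of equal length gave 0 and 1 of 72, against 1.81% and 1.63% of all regions. The 1 became 4 or 5 without G444E-FLAG replicate 1, G444E replicate 1 or G444E replicate 2, and 19 without G444E-FLAG replicate 2. The 0 became 1 to 5 without the first 3 of these libraries and was still 0 without G444E-FLAG replicate 2. The comparisons of the tag share libraries with those of the mutations, so their counts are not independent.

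Each region's calls were also compared by a two-sided Fisher's exact test, with Benjamini-Hochberg adjustment over every region of the series whose number of calls could reach 0.05. Between 6 FLAG and 6 untagged libraries, 0 of 11777 testable regions passed in either direction, and so 0 of the 16 at these genes. At an unadjusted p under 0.05, 1329 regions (11.3%) were called more often in FLAG libraries and 192 (1.63%) less often, and of the members' 16, 2 more often and 0 less often. These were chr1:23544755-23545140 near ID3 and chr15:71151064-71151749 inside THSD4, each called in 5 of 6 FLAG and 0 of 6 untagged libraries (Fisher's exact test, p = 0.0152, adjusted p = 0.117). The THSD4 one ranked at 28.3 and 24.8 in A442M-FLAG, 9.88 in G444E-FLAG replicate 1, and 0.104 and 1.35 in WT-FLAG. Called in FLAG libraries alone were 49 of the 131 regions (37.4%), against 30.2% of all. For each form of GATA3, the FLAG list was longer than the untagged list of the same replicate number. The part of list length in these counts was not tested. Untagged WT called none of 81 regions (61.8%), against 57.5% of all regions, and 1 region was called in every library other than those of untagged WT, a pattern of 2.61% of all regions.

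Between 8 mutant and 4 WT libraries, 0 of 26654 testable regions passed in either direction, and so 0 of the 44 at these genes. Both mutations and both tag states were pooled in this test. Here and in the test of the tag, so few libraries give only coarse exact p-values. No region could pass the adjustment unless very many regions split completely between the groups. The 0 therefore does not show that calls were unchanged. At an unadjusted p under 0.05 there were 55 (0.206%) called more often and 28 (0.105%) less often in mutant libraries, with 0 at these genes in either direction. Calls do not show a difference in the strength of a peak that all libraries have.

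Calls also differed by replicate number. No replicate 2 library called 35 of the 131 regions (26.7%), against 24.6% of all regions, and no replicate 1 library called 9 (6.87%), against 12.8%. Called in 3 or more replicate 1 and no replicate 2 libraries were 9 (against 5.09% of all regions), and the reverse held for 1 (against 1.69%). In every group replicate 1 had the longer list, so replicate number and list length cannot be told apart in these counts.

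The lists of other genes were chosen with results of these data known. Among 24 relatives of the members, such as other ID, LOX-like, TIMP and CDKN2 genes, 21 had a region within 50 kb (88.4% of all protein-coding genes had one) and 9 had one in all 12 libraries (37.5%). CDKN2A and CDKN2B, inhibitors of the same kinases as CDKN2C, had 0 regions, as did PALB2, the partner of BRCA2. Whether the DNA of these genes is intact in MDA-MB-231 was not examined, so a count of 0 does not show a lack of binding. Among the relatives of LOX, LOXL1 had 12 regions with 2 in all 12 libraries, LOXL2 20 with 3, LOXL3 11 with 1 and LOXL4 6 with 0, against 4 with 0 at LOX. Among the other TIMP genes, TIMP1 had 1 region with 0 in all 12, TIMP2 10 with 2 and TIMP4 8 with 3, against 1 with 0 at TIMP3. Neither these counts nor those of the list that follows were matched on the width of the window. Among 25 other genes linked to GATA3, luminal differentiation or metastasis, 22 had a region and 17 had one in all 12 libraries (68.0%), against 40.6% of all protein-coding genes and 7 of the 10 described here. Of these, PLAAT4, a phospholipase, had 20 regions with 6 in all 12, CDH1, the epithelial cadherin, 16 with 4, and FOXA1, the pioneer factor of luminal cells, 0.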

How the data were processed

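GATA3 ChIP-seq was measured in 12 MDA-MB-231 libraries, 2 for each of 6 groups. The submitters' processing notes name MACS2 2.1.4, FastQC and the build hg38; aligner, control, read depth and filters were not given in the sources used here. A deposited list has the peaks of 1 library, so the authors called peaks per sample, with a score per peak on a scale the files do not name, at least 5.00. The deposited score served to rank peaks inside their own list and to set a stricter threshold. Coordinates are 1-based.

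Peaks were merged into regions at an overlap of 1 bp, and gene spans and promoters came from RefSeq tables of GRCh38.p14. Regions at the 10 genes were those within 50 kb of the span. For 7 pairs of groups, regions were counted that both libraries of a group and neither library of the other called. Fisher's exact test on calls used all regions, and the script was tested on simulated data. The text names, for each gene, the region called in at least 8 libraries whose median percentile was highest (with none, the one in most libraries), regions within 1 kb of a span end, and up to 3 regions in both libraries of a group and neither of another, ranked by the lower percentile; of these some are given as counts. The regions called in both A442M-FLAG libraries alone, the replicate 1 region of DLC1, and the further ID1, LY6E, THSD4, DLC1 and BRCA1 regions named beside the leading ones were chosen after their values were seen. The genes and lists were chosen with earlier results of these data known.

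The labels number replicates 1 and 2 and do not say what they share. Over 15 pairs of groups, the difference between replicates correlated at 0.113 to 0.290 across regions, and the replicate block took the numbers to pair libraries. Replicate 1 had the longer list in every group, and a pairing cannot be told apart from list length here. That the numbers pair libraries was therefore assumed and not shown. Alternatives were a score of at least 10, lists of equal length, a cover of 50%, a replicate block and each library left out. Python 3.11.15, numpy 2.4.6, pandas 2.3.3, scipy 1.17.1 and matplotlib 3.10.9 were used. Depth is unknown, so no counting interval was computed.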

Additional observations from a re-analysis of the deposited data

How the results depend on the processing

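A pair of counts gives the regions called in both libraries of the first group and neither of the second, then the reverse. With lists of equal length the windows of the 10 genes held 84 regions. The pairs were then 2 and 2 in A442M against WT, 3 and 3 in A442M-FLAG against WT-FLAG, 0 and 1 in G444E-FLAG against WT-FLAG, 8 and 2 in WT-FLAG against WT, 6 and 0 for A442M-FLAG against A442M, and 0 and 1 in G444E-FLAG against G444E. With a score of at least 10, the pair was 6 and 2 in A442M-FLAG against WT-FLAG, 11 and 1 in A442M-FLAG against A442M, and 0 and 1 in G444E-FLAG against G444E; regions in WT-FLAG and not in G444E-FLAG numbered 0 and those in WT and not in WT-FLAG 2. With a cover of 50%, 7 regions were called in all 12 libraries, 9 in G444E and not in WT, 2 in WT-FLAG and not in A442M-FLAG, and 4 in G444E-FLAG and not in G444E, with 1 and 4 in G444E-FLAG against WT-FLAG. Regions in both A442M-FLAG libraries and no other, a result whose alternatives were chosen after seeing the data like those without untagged groups, numbered 1 at equal length and 4 at the higher score. Without untagged WT and A442M, 33 regions were called in all libraries that remained. The cause was not tested beyond what each setting removes. Leaving out 1 library gave 122 to 131 regions in the windows and 21 to 29 called in all libraries. The counts in the first group alone lay between 7 and 19 for A442M against WT, 5 and 16 for G444E against WT, 15 and 25 for A442M-FLAG against WT-FLAG, 1 and 6 for G444E-FLAG against WT-FLAG, 19 and 39 for WT-FLAG against WT, 22 and 35 for A442M-FLAG against A442M, 4 and 19 for G444E-FLAG against G444E, and 14 and 20 for A442M-FLAG alone of 12. In the second group alone they lay, in the same order of pairs, between 1 and 2, 2 and 3, 5 and 19, 5 and 13, 1 and 3, 3 and 9, and 0 and 5. Fisher's exact test gave 0 calls under every alternative run, with the lowest adjusted p between 0.068 and 0.149 for FLAG against untagged and between 0.864 and 1.0 for mutant against WT. The replicate block (libraries compared within a replicate number) also gave 0 calls and changed no call. Its exact test had a lowest adjusted p of 0.068 for FLAG. Many regions tied at that value, among them the ID3 and THSD4 regions with 5 of 6 calls. Of the 5173 regions testable in this block, 1329 had an unadjusted p under 0.05 with more calls in FLAG, and 192 with fewer. With the letters GATA alone, 8 of the 15 promoters held a match. The unknown depth limits every absence of a call, and 2 libraries per group limit every one-sided count.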
